A study of Homo sapiens with 30 samples.

Results

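The ribosome is built from ribosomal RNA and a fixed set of proteins, which sit either in the small subunit, where the messenger RNA is read, or in the large subunit, where peptide bonds form. The genes of these proteins lie scattered over the genome, are among the most highly transcribed genes of growing cells, and most of their transcripts begin with a run of pyrimidines, the 5' terminal oligopyrimidine (TOP) motif, through which mTOR and LARP1 control their translation. MYC and growth signalling raise their output in many tumours, and loss of single members causes Diamond-Blackfan anaemia.

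Cytosolic ribosomal protein genes were taken as all rows of both deposited tables whose gene name is RPL or RPS with a number and at most an A or X, RPLP0 to RPLP2, or RPSA. The rule left out pseudogenes, mitochondrial ribosomal proteins and RPS6K kinases. It gave 77 genes, 46 of the large subunit and 31 of the small, out of 58288 rows in the table of the media experiment and 20073 in that of the FGFR3 experiment. All 77 passed the filter on low counts in both experiments, so that none is missing below. They lie on 21 chromosomes.

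RNA was sequenced from the established cell line UMUC1, a human bladder cancer line with a loss-of-function mutation of UTX (gene KDM6A), a demethylase of histone H3 lysine 27. In the media experiment, cells stably carried a pSIN-puro vector with wild type UTX (UTX), with UTX changed at H1146A and E1148A (HEAA), or empty (EV), and were kept until day 3 in sphere medium or in full medium. Sphere medium was MEM free of serum, to which 20 ng/ml each of EGF and FGF2 and a B27 supplement lacking vitamin A had been added, and full medium was MEM plus 10% fetal bovine serum. In the FGFR3 experiment, all cells were in full medium and carried FGFR3 in pBabe-puro, either with the bladder cancer mutation S249C or wild type, and wild type UTX or nothing in pCDH-blasticidin. Each of the 10 groups had 3 libraries. Nothing in the labels says that the cells were clones or that replicates came from cultures of their own. The spread that p-values measure is therefore that between these libraries and may be technical.

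Total counts were 23749352 to 40111234 per library in the media experiment and 21672408 to 28290664 in the FGFR3 experiment. KDM6A was at 568 to 957 CPM (library-scaled counts) in the libraries with a UTX or HEAA vector of the media experiment and at 7.71 to 17.9 CPM in those with EV. In the FGFR3 experiment it was at 700 to 946 CPM with UTX and at 10.1 to 17 CPM with EV. FGFR3 was at 2200 to 2620 CPM in the libraries with S249C and at 1190 to 1380 CPM in those with wild type FGFR3. Transcripts of a vector and of the endogenous gene are counted together here. All levels below are CPM with TMM library factors, as single libraries or as mean ± SD (n = 3 libraries), and each CPM is relative to all RNA of its library. Fold changes are log2 ± SE from edgeR quasi-likelihood tests over all genes, and "rose" or "fell" means a Benjamini-Hochberg adjusted p under 0.05.

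The start regions of 6 members are shown because the TOP motif is what most of these genes share. The list holds both marker genes (RPS3 and RPL27) and members that come up below for a strong change (RPS12, RPL13A) or a weak one (RPS19, RPL35A). Each runs from 50 bases before the annotated start to 30 bases from it, on the plus strand, from RefSeq on GRCh38.p14. Capitals mark the longest pyrimidine run that begins within 20 bases of the start.
RPS3 (chr11:75399468-75399547): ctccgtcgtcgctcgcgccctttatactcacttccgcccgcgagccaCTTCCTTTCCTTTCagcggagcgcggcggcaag
RPL27 (chr17:42998369-42998448): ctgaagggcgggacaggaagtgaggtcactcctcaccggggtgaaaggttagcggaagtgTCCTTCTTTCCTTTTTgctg
RPS12 (chr6:132814519-132814598): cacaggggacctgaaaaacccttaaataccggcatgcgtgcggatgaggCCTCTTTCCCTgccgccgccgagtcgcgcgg
RPL13A (chr19:49487558-49487637): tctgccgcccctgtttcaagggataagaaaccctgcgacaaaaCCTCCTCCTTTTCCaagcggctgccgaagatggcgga
RPS19 (chr19:41860205-41860284): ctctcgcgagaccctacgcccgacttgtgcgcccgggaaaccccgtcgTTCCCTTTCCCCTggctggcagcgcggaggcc
RPL35A (chr3:197950140-197950219): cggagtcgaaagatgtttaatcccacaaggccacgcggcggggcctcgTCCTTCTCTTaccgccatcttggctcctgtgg
In 5 of these 6 the annotated start is a C inside the run. In RPL27 the run of 16 pyrimidines begins at base 11 of the annotated transcript.

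Of the 77 members, 62 had a start region in the RefSeq table. A start at C followed by 4 more pyrimidines, the letters used here for a TOP start, was found in 42 of the 62 (67.7%), against 4.07% of 35116 start regions of all genes. Over the 300 bases of the table and on both strands, the ETS core CCGGAAG was found in 33.9% of the members and 10.3% of all regions. The YY1 core AAGATGG was found in 12.9% and 5.84%, the GC box GGGCGG in 54.8% and 45.0%, the TATA box TATAAA in 8.06% and 11.5%, and the E-box CACGTG, the letters bound by MYC, in 4.84% and 7.26%. The motifs can overlap, and a match is a description of letters only. In UTX against EV in full medium the median log2 fold change was -0.57 for the 42 members with a TOP start and -0.53 for the other matched ones, and with the ETS core it was -0.56, against -0.58 without. In sphere medium it was -0.50 with and -0.49 without a TOP start. There it was -0.58 for the 3 members with the E-box, against -0.50 without. For the 5 with the TATA box it was also -0.58, against -0.49 without. With the E-box in full medium it was -0.58, against -0.56 without. In sphere against full medium in EV it was 0.23 with and 0.29 without the ETS core, and 0.19 for the 5 members with the TATA box, against 0.27 without. No test is given for these medians.

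In full medium, wild type UTX went with lower levels of the whole set. All 77 members fell, 46 of 46 in the large and 31 of 31 in the small subunit, where 29.2% of all 19629 genes tested fell and 28.4% rose. The median log2 fold change was -0.54 for large and -0.58 for small subunit genes, against 0.04 for all genes, which put the members 31.0% and 33.0% below EV. Single members ran from -0.73 to -0.31. All 77 had every UTX library below every EV library, as 31.5% of all genes did, and none lay the other way (32.1% of all genes). A lower CPM here does not tell less RNA per cell of these genes from more RNA of other genes, since bulk counts are relative, nor from a change in the mix of cells.

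RPL27, a large subunit protein (ENSG00000131469, chromosome 17), had 339, 362 and 339 CPM in UTX and 549, 575 and 604 CPM in EV. It fell by 0.73 ± 0.04 on the log2 scale (adjusted p = 2.26e-12), the strongest fall of all members. RPS3, which lines the mRNA entry channel of the small subunit (ENSG00000149273, chromosome 11), had 1053, 1163 and 1065 CPM in UTX and 1664, 1699 and 1790 CPM in EV. Its log2 fold change was -0.65 ± 0.04 (adjusted p = 1.38e-11). For both genes the highest UTX library was replicate 2, and the groups lay far apart.

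Beside RPL27, the large subunit genes with the strongest falls were RPL35, RPL36 and RPL41, at -0.73, -0.71 and -0.71 on the log2 scale (adjusted p = 1.89e-10 for RPL35, 1.51e-10 for RPL36 and 2.66e-11 for RPL41). RPL35 sits at the exit of the peptide tunnel, and RPL41 is the shortest ribosomal protein. In the small subunit RPS12 and RPS29 were among them, with -0.73 and -0.67. RPS12 had 404, 458 and 401 CPM in UTX and 672, 678 and 741 CPM in EV. The weakest falls were those of RPL15 (-0.35), RPL35A (-0.36) and RPL28 (-0.37) in the large subunit, and of RPS19 (-0.31), RPS21 (-0.36) and RPS27 (-0.43) in the small. RPS19, the gene most often mutated in Diamond-Blackfan anaemia, had 631, 717 and 623 CPM in UTX and 798, 809 and 842 CPM in EV (adjusted p = 1.8e-05). Even there no UTX library reached an EV library.

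In library UTX_full replicate 2 all 77 members were higher than in both other libraries of its group, by a median of 0.18 on the log2 scale. Nearly all members also shifted together in other libraries. In EV_full replicate 3, 75 members were highest in their group, with a median of 0.095 over the 77. In EV_FGFR3WT replicate 2, 75 were lowest, with a median of -0.123. Members held 5.06% of the counts of UTX_full replicate 2, against 4.48% and 4.61% in the other UTX libraries and 6.55%, 6.56% and 6.95% in the EV libraries. Without UTX_full replicate 2 all 77 members still fell, with medians of -0.60 and -0.64 for large and small subunit genes.

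**Figure D1:**
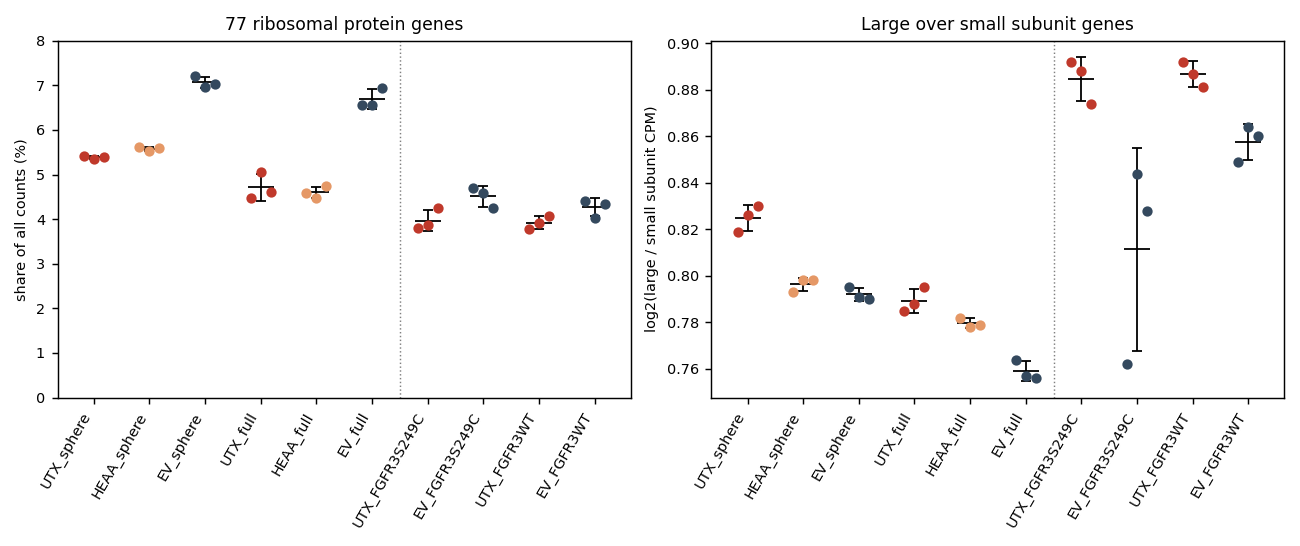
Share of all counts held by the 77 ribosomal protein genes (left, in percent) and log2 ratio of summed large over small subunit CPM (right), 1 point per library, with the mean and SD of 3 libraries for each of 10 groups; red is UTX, orange HEAA and dark blue EV, and the dotted line parts the media from the FGFR3 experiment. In the media experiment the share was 4.48% to 5.62% with UTX or HEAA and 6.55% to 7.21% with EV, and the right axis does not start at 0.

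In sphere medium UTX gave nearly the same picture. All 77 members fell again, where 25.6% of all genes fell and 22.8% rose. All 77 had UTX libraries wholly below EV libraries, as 28.8% of all genes did (25.8% the other way). The medians were -0.49 for large and -0.53 for small subunit genes, with a range of -0.68 to -0.19 and an all-gene median of -0.01. RPS3 had 1293, 1271 and 1276 CPM in UTX and 2054, 1876 and 1958 CPM in EV (log2 fold change -0.62 ± 0.04, adjusted p = 4.91e-11). RPL27 had 508, 491 and 495 CPM in UTX and 732, 698 and 740 CPM in EV (-0.54 ± 0.04, adjusted p = 4.46e-10). The UTX libraries of both genes lay close together and well under EV.

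Among the strongest falls in sphere medium were those of RPL13A (-0.65), RPL36 (-0.63) and RPL3 (-0.59) in the large subunit and of RPS29 (-0.64) and RPS12 (-0.63) in the small. RPL13A is also known for a role outside the ribosome in silencing inflammatory transcripts, and RPL3 reaches toward the peptidyl transferase centre. RPL13A had 1518, 1479 and 1507 CPM in UTX and 2452, 2281 and 2338 CPM in EV. The weakest were those of RPL35A (-0.22), RPL24 (-0.24) and RPL15 (-0.33), and of RPS26 (-0.19), RPS21 (-0.30) and RPS27A (-0.32), which encodes a ribosomal protein fused to ubiquitin. RPS26 had 41.1, 40.4 and 41.7 CPM in UTX and 50.5, 44.3 and 46.1 CPM in EV, with adjusted p = 0.0186. It was the smallest of these falls, and the groups still did not overlap.

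HEAA, whose 2 changes lie in the catalytic domain of UTX, lowered the same genes in full medium. All 77 fell, where 25.3% of all genes fell and 23.2% rose, and all 77 had groups that did not overlap (29.4% of all genes in that direction, 29% in the other). The medians were -0.57 for large and -0.61 for small subunit genes, against 0.03 for all genes. RPL27 had 346, 340 and 375 CPM in HEAA and 549, 575 and 604 CPM in EV (-0.70 ± 0.04, adjusted p = 9.47e-12). RPS3 had 1079, 1089 and 1157 CPM in HEAA and 1664, 1699 and 1790 CPM in EV (-0.63 ± 0.04, adjusted p = 4.98e-11). The strongest falls were those of RPL3 (-0.71), RPL41 (-0.71) and RPL27, and of RPS12 (-0.73), RPS13 (-0.72) and RPS29 (-0.70). The weakest were those of RPL28 (-0.36), RPL35A (-0.37) and RPL24 (-0.38), and of RPS21 (-0.37), RPS19 (-0.42) and RPS26 (-0.46).

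In sphere medium HEAA lowered 74 of 77 members, where 21.5% of all genes fell and 19.9% rose. The medians were -0.41 for large and -0.44 for small subunit genes, against -0.02 for all genes, and 74 members had groups that did not overlap (25% of all genes in that direction, 23.2% in the other). RPL13A (-0.66), RPL3 (-0.60) and RPL10 (-0.57), and RPS6 (-0.55) and RPS28 (-0.54) were among those that fell most. RPS6 is the protein that S6 kinases phosphorylate downstream of mTOR. RPS3 and RPL27 fell by 0.53 ± 0.04 and 0.42 ± 0.04 on the log2 scale (adjusted p = 9.52e-10 and 2.78e-08). RPL38 and RPS21 were among the weakest that still fell, by 0.27 and 0.18.

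The 3 members that did not pass in HEAA against EV in sphere medium were RPL35A (-0.06 ± 0.05, adjusted p = 0.419), RPL24 (-0.11 ± 0.05, adjusted p = 0.059) and RPS26 (-0.14 ± 0.06, adjusted p = 0.0895). RPL35A, another Diamond-Blackfan anaemia gene, had 550, 557 and 554 CPM in HEAA and 613, 560 and 553 CPM in EV. RPL24, which forms a bridge between the subunits, had 724, 748 and 698 CPM in HEAA and 818, 753 and 774 CPM in EV. RPS26, which lies at the mRNA exit channel, had 41.1, 44.9 and 42.2 CPM in HEAA and 50.5, 44.3 and 46.1 CPM in EV. In RPL35A and RPS26 the HEAA libraries reached into the range of EV, while in RPL24 the groups did not overlap. The other member whose groups overlapped was RPS21, with 639, 551 and 615 CPM in HEAA and 730, 636 and 683 CPM in EV (adjusted p = 0.00803).

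**Figure D2:**
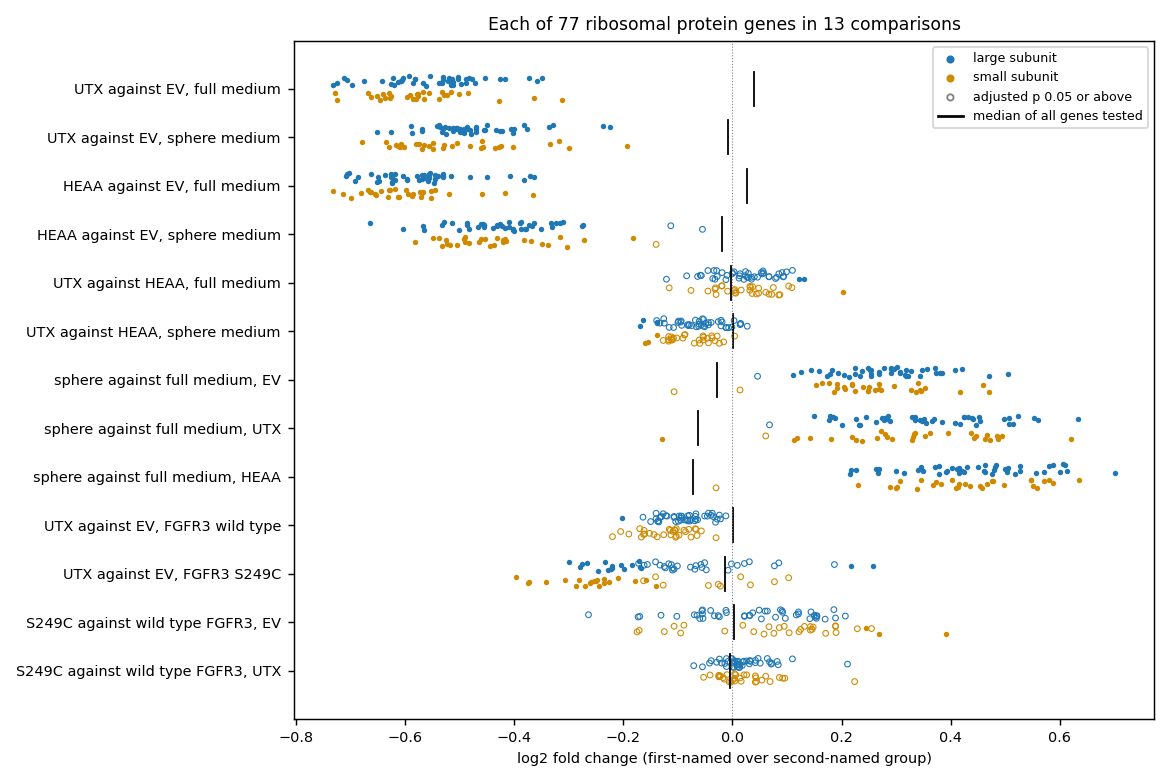
Log2 fold change (x axis, first-named over second-named group) of each of the 77 ribosomal protein genes in the 13 comparisons of 2 groups (rows); blue points are large and amber points small subunit genes, filled where adjusted p was under 0.05, and black ticks mark the median of all genes tested. All points of UTX against EV lie left of 0 in both media, with medians of -0.54 and -0.58 in full medium, and all but 1 point of sphere against full medium in EV lie right of 0.

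Wild type UTX and HEAA were then set against each other. In full medium 3 of 77 members were higher in UTX than in HEAA and 0 lower, where 8.95% of all genes were higher and 12.4% lower (edgeR, with 9 members at an unadjusted p under 0.05). The medians were 0.03 for both subunits. The 3 were RPS27 (0.20 ± 0.05, adjusted p = 0.00874), RPL15 (0.13 ± 0.04, adjusted p = 0.0381) and RPL9 (0.12 ± 0.04, adjusted p = 0.049). RPS27, a zinc-binding protein of the small subunit, had 231, 276 and 230 CPM in UTX and 207, 209 and 223 CPM in HEAA, so that the groups did not overlap, as for no other member (16% of all genes in that direction, 18.7% in the other). Without UTX_full replicate 2 no member was higher and 1 was lower, and 1 member was higher without HEAA_full replicate 1 or 2. RPS3 and RPL27 had -0.02 ± 0.04 and -0.03 ± 0.04 (adjusted p = 0.811 and 0.702).

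In sphere medium 7 members were lower in UTX than in HEAA and 0 higher, where 11.2% of all genes were lower and 8.87% higher. The medians were -0.06 for large and -0.09 for small subunit genes, and 40 of 77 members had every UTX library below every HEAA library, as 18.6% of all genes did (16.3% the other way). Among them were RPL35A (-0.17), RPL26 (-0.16), RPL21 (-0.14), RPL7 (-0.14), RPS15A (-0.15) and RPS12 (-0.14), with adjusted p from 0.0201 to 0.0492. RPL35A had 503, 499 and 476 CPM in UTX and 550, 557 and 554 CPM in HEAA. RPS12 had 577, 578 and 562 CPM in UTX and 635, 629 and 627 CPM in HEAA. Both kept their groups apart. The count is sensitive to the test: it was 17 with DESeq2, 22 with the 2 groups fitted alone, 2 without UTX_sphere replicate 3, and 4 without UTX_sphere replicate 2 or HEAA_sphere replicate 3.

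Medium moved the members the other way. In EV cells 74 of 77 members rose in sphere medium and 0 fell, where 33.1% of all genes rose and 32.4% fell. The medians were 0.28 for large and 0.25 for small subunit genes, against -0.03 for all genes, and 73 members had groups that did not overlap (34.7% of all genes in that direction, 34.8% in the other). Serum, B27, FGF2 and EGF all differ between the media, and their effects cannot be told apart here. Among the strongest rises were those of RPL8 (0.51), RPL28 (0.47) and RPLP2 (0.42), and of RPS28 (0.47). RPLP2 is an acidic protein of the stalk that recruits elongation factors. RPL27 rose by 0.33 ± 0.04 and RPS3 by 0.19 ± 0.04 (adjusted p = 3.81e-07 and 0.000312).

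The 3 members that did not pass in EV were RPS19 (-0.11 ± 0.05, adjusted p = 0.071), RPSA (0.01 ± 0.05, adjusted p = 0.795) and RPL15 (0.05 ± 0.04, adjusted p = 0.365). RPL10A (0.11) and RPL41 (0.13), and RPS4X (0.15), were the next lowest. RPS19 had 807, 722 and 745 CPM in sphere medium and 798, 809 and 842 CPM in full medium. RPSA, which is also known as the laminin receptor, had 1071, 1035 and 1070 CPM in sphere medium and 998, 1039 and 1107 CPM in full medium. In both genes the groups overlapped.

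These medium values depend on scaling. With total counts in place of TMM factors the median of all genes in EV was -0.21, the members' medians were 0.10 and 0.07 for large and small subunit genes, and 32 members rose and 3 fell. Total counts in place of TMM factors move all genes by about the same amount. The distance of the members from the all-gene median could therefore hardly change, and it is no check of the rise. With TMM factors 69.1% of all genes tested lay below the median of the members. The share of all counts held by the members was 7.07% ± 0.12 in EV_sphere and 6.69% ± 0.23 in EV_full.

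In UTX cells 74 members rose in sphere medium, where 35.1% of all genes rose, and 1 fell (35.4% of all genes fell). The medians were 0.35 for large and 0.33 for small subunit genes, against -0.06 for all genes. Sphere libraries lay wholly above full medium libraries for 71 members (35.7% of all genes) and wholly below for 1 (37%). The member that fell was RPS19 (-0.13 ± 0.05, adjusted p = 0.03), with 592, 606 and 604 CPM in sphere medium and 631, 717 and 623 CPM in full medium. Without UTX_full replicate 2, its highest library, RPS19 had -0.06 and no member fell, and the call was also lost without any 1 of the UTX_sphere libraries and with DESeq2. RPL38 (0.63), RPL8 (0.56) and RPL35 (0.55), and RPS26 (0.62) and RPS16 (0.49), were among those that rose most. RPS27 (0.06) and RPL15 (0.07) did not pass. RPL13A (0.15) and RPL10A (0.18), and RPSA (0.11), were the next lowest. RPL27 rose by 0.52 ± 0.04 and RPS3 by 0.23 ± 0.04 (adjusted p = 2.57e-10 and 4.79e-05).

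In HEAA cells 76 of 77 members rose, where 34.4% of all genes rose and 36.3% fell, with medians of 0.44 and 0.43 and an all-gene median of -0.07. The same 76 had groups that did not overlap (35.4% of all genes in that direction, 38.3% in the other). RPL38 (0.70), RPL39 (0.61) and RPL27 (0.61), and RPS13 (0.64) and RPS12 (0.59), were among those that rose most. RPL38 had 326, 321 and 342 CPM in sphere medium and 195, 196 and 217 CPM in full medium. RPL10A (0.22), RPL15 (0.22) and RPL13A (0.23), and RPSA (0.23) and RPS9 (0.29), were the weakest rises. RPS19 was the exception (-0.03 ± 0.05, adjusted p = 0.619), with 633, 562 and 602 CPM in sphere medium and 598, 602 and 635 CPM in full medium. RPS3 rose by 0.30 ± 0.04 (adjusted p = 1.35e-06).

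**Figure D3:**
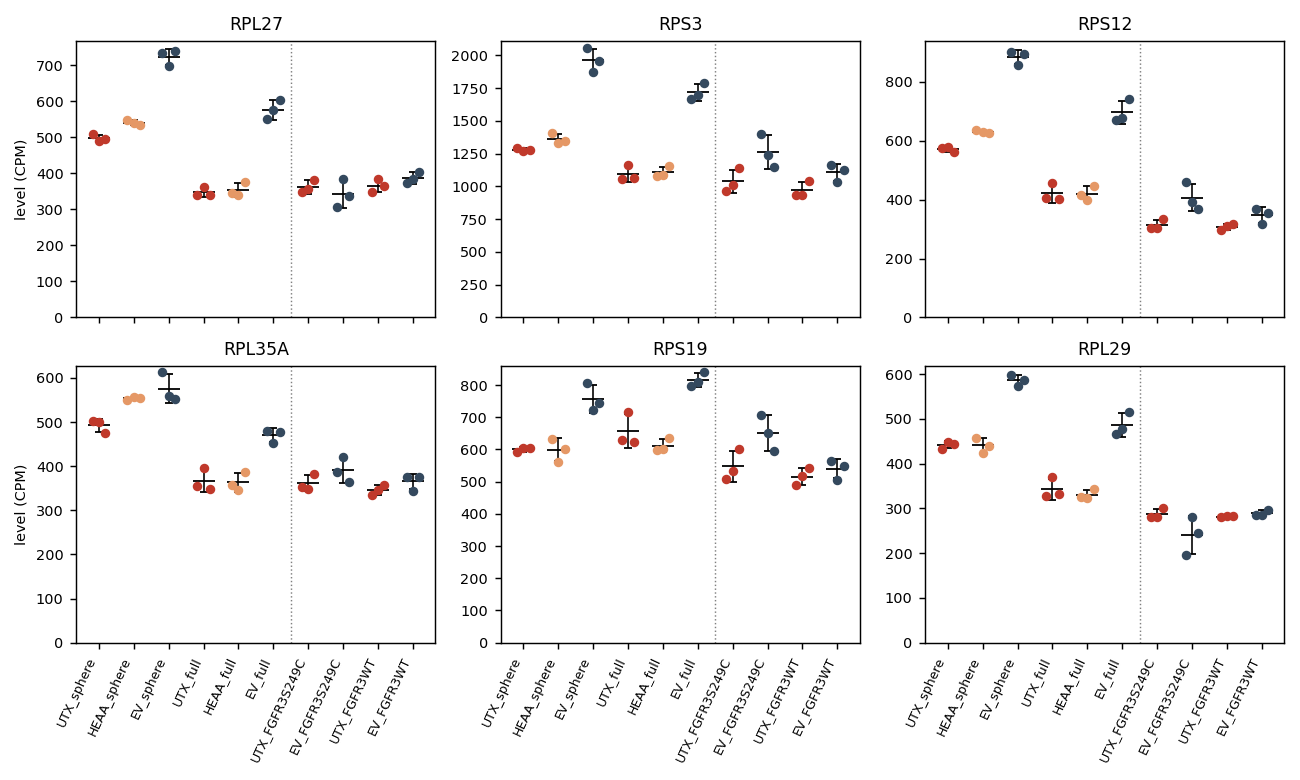
Level (CPM, axis from 0) of 6 members in every library, with the mean and SD of 3 libraries for each of 10 groups; red is UTX, orange HEAA and dark blue EV, and the dotted line parts the media from the FGFR3 experiment, whose levels come from a separate table. RPL27 was at 339 to 375 CPM in UTX and HEAA in full medium and at 549 to 604 CPM in EV, while RPS19 shows no rise in sphere medium.

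Whether the effect of UTX or HEAA depended on the medium was tested as an interaction, the log2 fold change against EV in sphere medium minus that in full medium. For UTX 8 members had a positive interaction, a smaller fall in sphere medium, and 0 a negative one, where 21.1% of all genes had a positive one and 16.2% a negative one. The members' count was thus under the background. The 8 were RPS26 (0.38), RPL35 (0.30), RPL38 (0.22), RPL12 (0.21), RPS27A (0.20), RPL27 (0.20), RPL24 (0.18) and RPL14 (0.15), named after their values were seen. RPL27 had 0.20 ± 0.06 (adjusted p = 0.0115) and RPS3 0.04 ± 0.06 (adjusted p = 0.695). The count was 24 without UTX_full replicate 2, 13 without EV_sphere replicate 1, 4 without EV_full replicate 3, and 3 without EV_sphere replicate 2 or UTX_full replicate 1 or 3.

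For HEAA 36 of 77 members had a positive interaction and 0 a negative one, where 18.7% of all genes had a positive one and 14.3% a negative one. The medians were 0.17 for large and 0.16 for small subunit genes. RPL27 had 0.28 ± 0.06 (adjusted p = 0.000726) and RPS3 0.11 ± 0.06 (adjusted p = 0.177). The count was 56 without HEAA_full replicate 3, in which all 77 members were higher than in both other libraries of its group by a median of 0.10. UTX and HEAA share the same EV libraries here, and the interactions of the 2 vectors were not set against each other.

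The size of the falls in both media was compared gene by gene. Across the 77 genes Pearson's r between the log2 fold changes in sphere and full medium was 0.59 for UTX (Spearman's rho 0.53) and 0.74 for HEAA (0.67). Genes are not independent replicates and all come from the same libraries, so no p is given.

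In the FGFR3 experiment UTX was expressed from another vector, in cells that already carried an FGFR3 vector. With wild type FGFR3 all 77 log2 fold changes of UTX against EV were negative, but 1 passed, where 6.01% of all 19399 genes tested fell and 9.06% rose. The medians were -0.09 for large and -0.11 for small subunit genes, against 0.00 for all genes, and 20 members had an unadjusted p under 0.05. Groups did not overlap for 18 members, all lower with UTX, as for 16.2% of all genes (18.5% the other way). RPL17 (-0.20 ± 0.06, adjusted p = 0.0232) was the member that fell. The count was 8 with DESeq2, 17 with the 2 groups fitted alone, 6 without EV_FGFR3WT replicate 2 and 0 without EV_FGFR3WT replicate 1 or 3 or UTX_FGFR3WT replicate 1 or 3.

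RPL27 had 348, 383 and 365 CPM in UTX and 373, 383 and 404 CPM in EV (-0.08 ± 0.07, adjusted p = 0.509). RPS3 had 937, 933 and 1044 CPM in UTX and 1163, 1035 and 1125 CPM in EV (-0.19 ± 0.08, adjusted p = 0.121). The groups of both genes overlapped. The lowest values were those of RPL17, RPL7 (-0.16) and RPL14 (-0.15), and of RPSA (-0.22), RPS3A (-0.21) and RPS3. Among the highest were those of RPL37A (-0.01), RPL39 (-0.02) and RPL38 (-0.02), and of RPS25 (-0.03) and RPS27 (-0.06).

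With S249C FGFR3, UTX lowered 37 of 77 members, where 8.62% of all genes fell, and raised 2, where 12.9% rose. The subunits differed in count: 21 of 31 small subunit genes fell and 0 rose, while 16 of 46 large subunit genes fell and 2 rose. The medians were -0.24 for small and -0.12 for large subunit genes, against -0.01 for all genes. Groups did not overlap for 30 members, as for 15.9% of all genes in that direction (18% in the other).

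RPS27A (-0.40 ± 0.08, adjusted p = 0.00296), RPS3A (-0.38 ± 0.08, adjusted p = 0.00511) and RPS12 (-0.37 ± 0.08, adjusted p = 0.00232) fell most. RPS27A had 429, 436 and 479 CPM in UTX and 679, 558 and 534 CPM in EV. RPS12 had 304, 305 and 334 CPM in UTX and 460, 393 and 369 CPM in EV. In both genes the groups did not overlap and the highest EV library was replicate 1. In the large subunit RPL24 (-0.30), RPL7A (-0.28) and RPL34 (-0.28) fell most. RPS3 had 969, 1008 and 1139 CPM in UTX and 1398, 1242 and 1147 CPM in EV (-0.28 ± 0.08, adjusted p = 0.016), again without overlap. RPL27 had 347, 356 and 383 CPM in UTX and 307, 385 and 338 CPM in EV (0.08 ± 0.07, adjusted p = 0.491), and its groups overlapped. RPS3 no longer passed without EV_FGFR3S249C replicate 1 (-0.20), UTX_FGFR3S249C replicate 1 (-0.23) or UTX_FGFR3S249C replicate 2 (-0.26). RPS27A (-0.28) and RPS12 (-0.28) still passed without EV_FGFR3S249C replicate 1.

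The 2 that rose were RPL29 (0.26 ± 0.09, adjusted p = 0.0466) and RPL32 (0.22 ± 0.07, adjusted p = 0.0484). RPL29 had 280, 281 and 301 CPM in UTX and 197, 281 and 245 CPM in EV. RPL32 had 378, 381 and 404 CPM in UTX and 291, 381 and 330 CPM in EV. The groups overlapped in both. RPS27 (0.08) was among the next highest and did not pass.

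In this comparison 1 library of each group stood apart. In UTX_FGFR3S249C replicate 3, 76 of 77 members were higher than in both other libraries, by a median of 0.14 on the log2 scale. In EV_FGFR3S249C replicate 1 the members scattered around the other 2 libraries from -0.41 to 0.34 on the log2 scale, with an SD over members of 0.16, and the log2 ratio of large to small subunit CPM was 0.76, against 0.84 and 0.83 in the other EV libraries. In EV_FGFR3S249C replicate 2 the SD was 0.11, and in the libraries of the other 3 groups of that experiment it was 0.02 to 0.05. Without EV_FGFR3S249C replicate 1, 13 members fell and 0 rose, and the medians were -0.12 for large and -0.17 for small subunit genes. The count of falls was 20 without EV_FGFR3S249C replicate 2, 15 without UTX_FGFR3S249C replicate 2, 9 without UTX_FGFR3S249C replicate 1, 49 without UTX_FGFR3S249C replicate 3, 46 without EV_FGFR3S249C replicate 3 and 18 with the 2 groups fitted alone. The 2 rises were lost without any 1 library other than EV_FGFR3S249C replicate 2, without which 5 rose. The part of these libraries in the result was not tested.

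**Figure D4:**
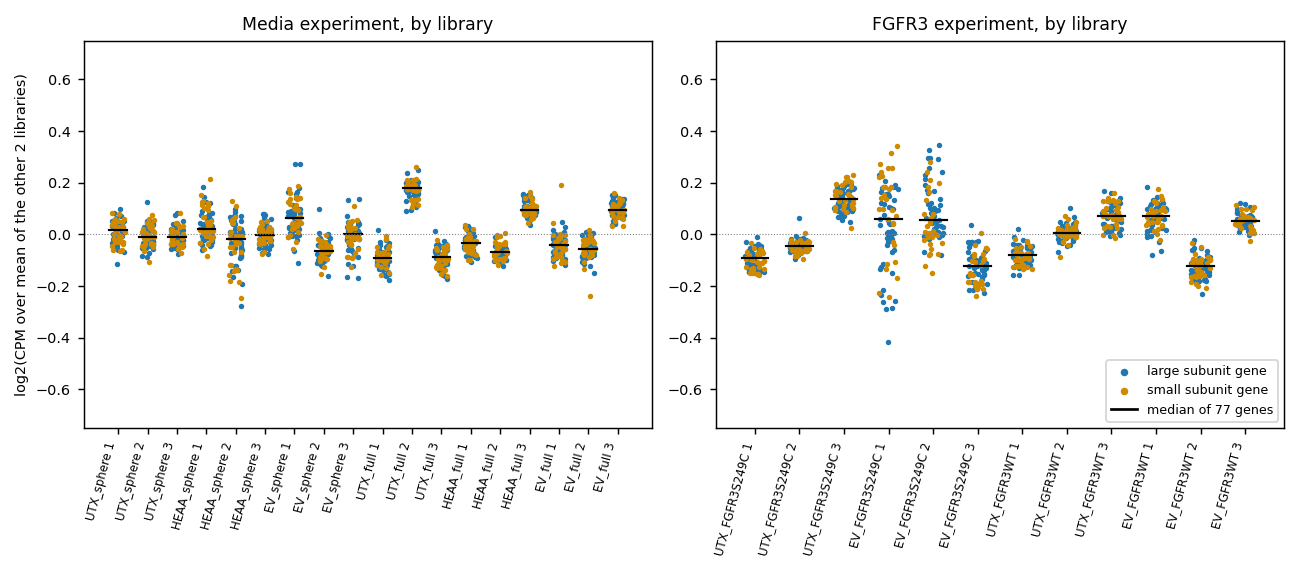
Deviation of each of the 77 ribosomal protein genes in each library from the mean of the other 2 libraries of its group (y axis, log2 of the CPM ratio), for the media (left) and FGFR3 experiment (right); blue points are large and amber points small subunit genes and bars mark the median. In UTX_full 2 all 77 members lie above 0, with a median of 0.18, in the sphere medium libraries members lie on both sides of 0, and EV_FGFR3S249C 1 and 2 spread the members with SDs of 0.16 and 0.11.

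The effect of UTX was not shown to differ between S249C and wild type FGFR3. In the test of that interaction 0 of 77 members passed in either direction (edgeR, with 4 at an unadjusted p under 0.05, and 0 by DESeq2), where 0.113% of all genes were lower and 0.572% higher. The largest values were 0.30 for RPL29 (adjusted p = 0.396) and -0.23 for RPS27A (adjusted p = 0.499), which were chosen after their values were seen. RPS3 had -0.09 ± 0.11 and RPL27 0.16 ± 0.10 (adjusted p = 0.815 and 0.6).

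S249C against wild type FGFR3 moved few members. In EV cells 3 rose and 0 fell, where 4.31% of all genes rose and 6.45% fell (28 members had an unadjusted p under 0.05). The 3 were RPS29 (0.39 ± 0.06, adjusted p = 0.000763), RPS19 (0.27 ± 0.07, adjusted p = 0.0266) and RPS21 (0.24 ± 0.06, adjusted p = 0.0166), all of the small subunit. RPS29 had 169, 166 and 150 CPM with S249C and 126, 118 and 126 CPM with wild type FGFR3. RPS19 had 707, 651 and 594 CPM with S249C and 565, 506 and 549 CPM with wild type. In both the groups did not overlap, and so it was for 9 members in that direction (14% of all genes) and for 1 in the other (16.5%). RPL29 (-0.26) and RPL27 (-0.17), and RPS27 (-0.18) and RPS15A (-0.13), were among the lowest values, and RPL7A (0.21), RPL13 (0.19) and RPL24 (0.19) the highest of the large subunit; none of these passed. RPS3 had 0.19 ± 0.08 (adjusted p = 0.138). The count of rises was 1 without EV_FGFR3S249C replicate 1 or EV_FGFR3WT replicate 2 or 3, and 10 without EV_FGFR3S249C replicate 3, while 8 members fell without EV_FGFR3S249C replicate 2.

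In UTX cells S249C changed 0 of 77 members in either direction, where 1.71% of all genes rose and 1.34% fell (edgeR, with 2 members at an unadjusted p under 0.05, and 1 rise by DESeq2). RPS29 (0.22 ± 0.06, adjusted p = 0.0643) and RPL32 (0.21 ± 0.07, adjusted p = 0.17) were the highest. RPS29 had 126, 130 and 146 CPM with S249C and 110, 116 and 119 CPM with wild type FGFR3, which did not overlap. That held for 3 members in this direction and 0 in the other, against 9.87% and 10.4% of all genes. RPL17 (0.11), and RPS3 (0.10) and RPS21 (0.09), were also high. RPL39 (-0.07), RPL37 (-0.06) and RPL26 (-0.04), and RPS25 (-0.05), RPS27 (-0.04) and RPS15A (-0.03), were the lowest, and RPL27 had -0.01 ± 0.07.

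The order of the members in UTX against EV was also compared between the experiments, both in full medium. Across the 77 genes Pearson's r with UTX against EV in full medium was 0.03 for wild type FGFR3 and -0.01 for S249C (Spearman's rho 0.00 and -0.01). Between the 2 FGFR3 backgrounds it was 0.56 (rho 0.58). The experiments differ in vectors, in library kit (Illumina TruSeq in the media and NEBNext Ultra II RNA in the FGFR3 experiment) and in the annotation of the tables. RPS26, for instance, was at 25.6 to 50.5 CPM in the libraries of the media table and at 187.5 to 248.7 CPM in those of the FGFR3 table. Levels are therefore not compared across the tables.

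Large and small subunit genes were compared over all 10 groups as a log2 ratio of their summed CPM within each library, which no scaling changes. It was 0.79 ± 0.01 in UTX_full, 0.78 ± 0.00 in HEAA_full and 0.76 ± 0.00 in EV_full. In sphere medium it was 0.83 ± 0.01 in UTX_sphere, 0.80 ± 0.00 in HEAA_sphere and 0.79 ± 0.00 in EV_sphere. The UTX libraries ran from 0.785 to 0.795 in full medium, above all EV libraries at 0.756 to 0.764. The HEAA libraries in full medium, at 0.778 to 0.782, also lay above all EV libraries. In sphere medium the UTX libraries ran from 0.819 to 0.830, above all EV libraries at 0.790 to 0.795, with which the HEAA libraries at 0.793 to 0.798 overlapped. These EV libraries in turn lay above all EV libraries in full medium. With geometric means in place of sums, the HEAA libraries in sphere medium, at 0.219 to 0.24, lay above all EV libraries, at 0.21 to 0.218. The order of UTX_full and HEAA_full was then the other way, with means of 0.2089 and 0.2128, and their libraries overlapped.

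In the FGFR3 experiment the ratio was 0.88 ± 0.01 in UTX_FGFR3S249C and 0.81 ± 0.04 in EV_FGFR3S249C, and 0.89 ± 0.01 in UTX_FGFR3WT and 0.86 ± 0.01 in EV_FGFR3WT. UTX libraries lay above EV libraries in both backgrounds, at 0.874 to 0.892 against 0.762 to 0.844 with S249C and at 0.881 to 0.892 against 0.849 to 0.864 with wild type FGFR3. Small subunit genes were thus lower relative to large subunit genes with UTX in all 4 comparisons with EV. With S249C the lowest EV library was replicate 1, at 0.762. No test is given for this sum over members.

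Members also have non-ribosomal passengers: 28 of the 77 hold 60 small nucleolar RNA genes, which guide ribosomal RNA modification, within their gene bodies in GENCODE v29. RPL13A holds 4 of them and RPS12 holds 3. The 28 hosts had median log2 fold changes of -0.58 for UTX and -0.63 for HEAA against EV in full medium, and the other 49 had -0.56 and -0.57. In sphere against full medium in EV cells the medians were 0.28 and 0.26.

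Other genes of protein synthesis were counted beside the members, in lists chosen by function. Of 54 ribosome biogenesis genes, 53 fell and 0 rose in UTX against EV in full medium. Of all genes 29.2% fell and 28.4% rose. The median of the list was -0.65, below that of the ribosomal proteins. FBL, the methyltransferase of box C/D RNPs, fell to 78.3 CPM, against 173 CPM in EV (-1.14 ± 0.06, adjusted p = 6.81e-13), and NOP56, its partner, had 164 CPM, against 355 CPM (-1.11). The weakest falls were those of UBTF and NMD3, both -0.16. In sphere medium 46 of 54 fell and 1 rose with UTX, with a median of -0.24, where 25.6% of all genes fell and 22.8% rose. HEAA lowered 52 in full medium (median -0.40), where 25.3% of all genes fell and 23.2% rose. In sphere medium HEAA lowered 19 and raised 5 (median -0.10), where 21.5% of all genes fell and 19.9% rose.

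Biogenesis genes also differed between the UTX proteins. In UTX against HEAA in full medium 43 of 54 biogenesis genes were lower and 0 higher, with a median of -0.27. Of all genes 12.4% were lower and 8.95% higher, and 0 of 77 ribosomal proteins were lower. TCOF1 (-0.44 ± 0.05, adjusted p = 3.71e-06) and NOP56 (-0.42 ± 0.04, adjusted p = 2.52e-07) were lowest. In sphere medium 34 of 54 were lower and 0 higher, with a median of -0.15, where 11.2% of all genes were lower and 8.87% higher. The interactions of biogenesis genes with medium were also positive for 48 of 54 with UTX and 46 of 54 with HEAA. They were positive for 8 and 36 of the 77 members, and for 21.1% and 18.7% of all genes.

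**Figure D5:**
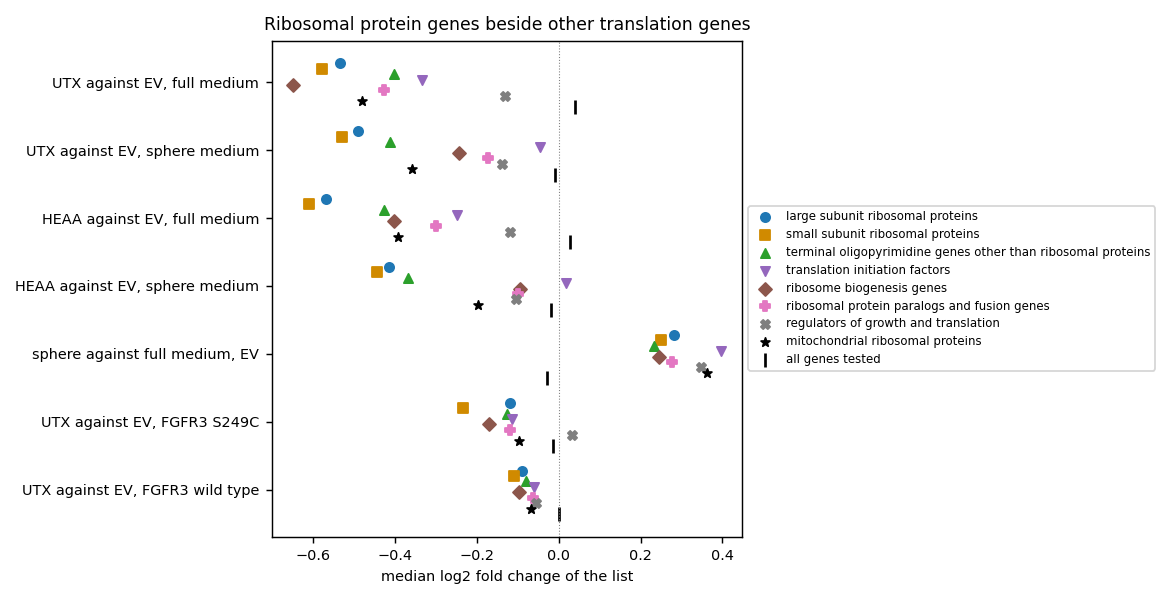
Median log2 fold change (x axis) of large and small subunit ribosomal protein genes and of 6 related lists in 7 comparisons (rows), with black ticks for the median of all genes tested. In full medium biogenesis genes lay at -0.65 with UTX and -0.40 with HEAA, while large subunit genes lay at -0.54 and -0.57.

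Of 25 TOP genes that are not ribosomal proteins, 24 fell and 0 rose with UTX in full medium (median -0.40) and 23 fell in sphere medium (median -0.41). With HEAA 24 and 23 fell. Of all genes 29.2% fell with UTX in full medium and 25.6% in sphere medium, and 25.3% and 21.5% with HEAA. IMPDH2, an enzyme of guanine nucleotide synthesis, fell to 129 CPM, against 245 CPM in EV (-0.92 ± 0.04, adjusted p = 1.97e-14), and the nucleolar chaperone NPM1 had 962 CPM, against 1660 CPM (-0.79). PABPC1, the poly(A)-binding protein, and EIF2S3 fell least, by 0.17 and 0.15. Of 78 mitochondrial ribosomal proteins, 78 fell with UTX in full medium (median -0.48) and 66 in sphere medium (median -0.36), with MRPL12 (-0.99) lowest in full medium.

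Of 27 initiation factors, 22 fell and 2 rose with UTX in full medium, where 29.2% of all genes fell and 28.4% rose. The median of the list was -0.33. In sphere medium 11 fell and 5 rose, with a median of -0.05, where 25.6% of all genes fell and 22.8% rose. EIF3C rose to 775 CPM, against 588 CPM in EV (0.40 ± 0.04, adjusted p = 5.59e-09), and EIF2B3 fell most (-0.94). Among paralogs and fusion genes in full medium RPL22L1 had 42.6 CPM in UTX and 102 CPM in EV (-1.26 ± 0.05, adjusted p = 1.11e-15), and RPS27L, a p53 target, had 78.7 CPM in UTX and 58.4 CPM in EV (0.43 ± 0.05, adjusted p = 6.42e-08). RPL36AL fell by 0.28.

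Growth regulators were mixed. With UTX in full medium 10 of 18 measured fell and 6 rose, where 29.2% of all genes fell and 28.4% rose. In sphere medium 10 fell and 5 rose, where 25.6% fell and 22.8% rose. In full medium MYC had 65.8 CPM in UTX and 122 CPM in EV (-0.89 ± 0.04, adjusted p = 6.92e-15), and the translation repressor EIF4EBP1 had 14.8 CPM, against 28.6 CPM (-0.95). MDM2, the p53 ligase to which free ribosomal proteins bind, had 181 CPM, against 80.8 CPM (1.17 ± 0.05, adjusted p = 1.13e-14), and the mTORC1 inhibitor SESN2 had 46.2 CPM, against 22.2 CPM (1.06). HEAA gave values of the same sign, with -0.62 for MYC, -0.59 for EIF4EBP1, 0.79 for MDM2 and 0.74 for SESN2. In sphere medium MYC and SESN2 had values of the opposite sign, which for MYC with UTX did not pass. MYC had 138 CPM in UTX and 134 CPM in EV (0.05 ± 0.03, adjusted p = 0.235), and with HEAA it rose by 0.09 (adjusted p = 0.0439). SESN2 fell by 0.25 with UTX and by 0.38 with HEAA. MDM2 rose by 0.68 and 0.48 with these vectors, and EIF4EBP1 fell by 0.99 with UTX and by 0.51 with HEAA. The sphere medium values of MYC, SESN2 and MDM2 were added after they were seen. The part of these genes in the fall of the members was not tested.

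The same lists were counted in the FGFR3 experiment. With wild type FGFR3 UTX lowered 8 of 54 biogenesis genes, 1 of 25 TOP genes and 6 of 78 mitochondrial ribosomal proteins, and raised 0 of each, where 6.01% of all genes fell. The counts of the last 2 lists were thus near the background. FBL had -0.28 ± 0.07 (adjusted p = 0.0103) and IMPDH2 -0.22 ± 0.04 (adjusted p = 0.00211). With S249C it lowered 30 biogenesis genes, 9 TOP genes and 18 mitochondrial ribosomal proteins, and 4 of the last rose, where 8.62% of all genes fell and 12.9% rose. These lists were not counted again with libraries left out, under which the members' count of falls ranged from 9 to 49. FBL had -0.45 ± 0.07 and NPM1 -0.38 ± 0.07 (adjusted p = 0.000234 and 0.000928). Of 17 growth regulators measured, UTX raised 2 and lowered 1 with wild type FGFR3, where 9.06% of all genes rose and 6.01% fell. With S249C it raised 3 and lowered 0, where 12.9% of all genes rose and 8.62% fell. SESN2 was higher with UTX in both backgrounds (0.30 with wild type FGFR3 and 0.46 with S249C).

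Reads can be shared between a ribosomal protein gene and its processed pseudogenes, so that part of each count is uncertain. Rows whose deposited gene name had the form of such a pseudogene numbered 14 in the media and 5 in the FGFR3 table. These held at most 0.003% of the counts of any library. Rows without a gene name and pseudogenes of RPSA were not searched, so the share of all pseudogenes is not known. The sources used here do not say how reads that match both were split.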

How the data were processed

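Both tables held whole-number estimated counts per gene, as the authors deposited them, without scaling. Per the submitters' processing notes, Salmon 0.8 and DESeq2 were used with hg19 or GRCh37. How transcripts were joined into genes, and on which annotation release, is not stated there. Each experiment was fitted alone with edgeR 4.0.16 in R 4.3.3, with filterByExpr by group, TMM factors, quasi-likelihood tests and Benjamini-Hochberg adjustment over 19629 and 19399 genes, at a threshold of 0.05. SE was computed by dividing the absolute log2 fold change by the square root of F. The common biological coefficient of variation was 4.6% in the media and 6% in the FGFR3 experiment. The script was tested on simulated data.

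The members and lists were chosen with earlier results of these data known. Named were RPS3 and RPL27, the 3 highest and 3 lowest members of each subunit in comparisons of 2 groups, members called against the majority, and the 2 highest and 2 lowest called genes of each list; other names are stated as chosen later. A few genes that meet this rule are not reported by name here, but they count in all totals and medians. Replicates differed beyond sampling noise and were all kept, and their numbers were not used to pair samples. Alternatives covered DESeq2 1.42.0, scaling, filtering, a replicate block, fewer groups and each library left out. Summaries and plots used Python 3.11.15. Positions are from GENCODE v29 on GRCh38, and start regions from RefSeq on GRCh38.p14, not the build the notes name.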

Additional observations from a re-analysis of the deposited data

Results flagged for a closer look

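An interaction test (edgeR quasi-likelihood, adjusted over all genes) asked in which members the log2 fold change against EV differed between sphere and full medium. For UTX 8 of 77 members passed, all with the higher value in sphere medium, where 21.1% of all genes passed in that direction, so that the members' count was under the background. It ranged from 3 to 24 with single libraries left out. RPL27, 1 of the 8, differed by 0.195 (adjusted p = 0.0115): it fell by 0.54 with UTX in sphere medium and by 0.73 in full medium. For HEAA 36 of 77 members passed in that direction, where 18.7% of all genes passed and 14.3% in the other. The count was 56 without HEAA_full replicate 3 and ranged from 27 to 56 over the libraries left out. RPL27 differed by 0.282 (adjusted p = 0.000726), with falls of 0.42 in sphere medium and 0.70 in full medium. The other members with the highest values for HEAA were RPS26 (0.32), RPL35A (0.32), RPS13 (0.30) and RPL38 (0.29), and the lowest were RPL28 (0.01) and RPL13A (0.02), all named after their values were seen. No group had the 4 libraries that a test for a single outlying sample needs.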

How the results depend on the processing

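The falls of 77 members with UTX in both media and with HEAA in full medium, and the rises of 76 members in HEAA and 74 in UTX cells in sphere medium, stayed within 1.5 times of their counts under all alternatives run. Of 2400 values of named members under the alternatives, 2237 kept their side of the threshold, 99 no longer passed and 58 newly passed. The other 6 changed sign and passed in the main fit, the alternative or both. Changes of sign in values that passed in neither fit are counted among the 2237. With total counts in place of TMM factors, the medians for large and small subunit genes were -0.384 and -0.422 for UTX against EV and -0.318 and -0.349 for HEAA against EV in sphere medium. For sphere against full medium they were 0.101 and 0.067 in EV, 0.224 and 0.206 in UTX and 0.306 and 0.292 in HEAA. In EV 32 members then rose and 3 fell, and in HEAA 1 fell. RPL15 (-0.136), RPL10A (-0.072), RPL41 (-0.058), RPSA (-0.168) and RPS4X (-0.028) changed sign in EV, and RPSA (-0.012) in UTX, where the median of all genes also moved to -0.211 in EV and -0.19 in UTX. Positive interactions with medium then numbered 25 for UTX and 58 for HEAA. UTX against EV gave 4 falls with wild type FGFR3 and 0 rises with S249C, and 6 members rose with S249C in EV. DESeq2 gave 17 lower members for UTX against HEAA in sphere medium, 0 falls for sphere against full medium in UTX, 8 falls for UTX against EV with wild type FGFR3, 9 rises and 2 falls for S249C in EV, and 1 rise for S249C in UTX. RLE factors gave 1 higher member for UTX against HEAA in full medium, 0 falls in sphere against full medium in UTX, 3 falls for UTX with wild type FGFR3 and 1 rise with S249C. TMM factors without the members gave 2 falls and 1 rise in these last comparisons. Without the filter on low counts 1 member was higher in UTX against HEAA in full medium, 0 fell in sphere against full medium in UTX, 23 and 56 had positive interactions for UTX and HEAA, and 0 rose with UTX and S249C. The replicate numbers did not pair the samples: same-numbered libraries correlated at -0.06 to 0.06 in the media and -0.09 to 0.16 in the FGFR3 experiment. With a replicate block 1 member was higher in UTX against HEAA in full medium and 1 rose with UTX and S249C. With the groups of each comparison fitted alone, 1 member was higher and 22 lower in UTX against HEAA in full and sphere medium, 1 fell in sphere against full medium in EV, 17 fell with UTX and wild type FGFR3, 18 fell and 0 rose with UTX and S249C, and 1 rose with S249C in UTX. Leaving out each library in turn, where the remaining ones stand for the spread of the group, gave these ranges: UTX against HEAA, 0 to 4 higher and 0 to 1 lower in full medium and 2 to 8 lower in sphere medium; sphere against full medium, 0 to 1 fall in EV and 0 to 1 in UTX; positive interactions 3 to 24 and negative 0 to 1 for UTX, and positive 27 to 56 for HEAA. UTX against EV gave 0 to 6 falls with wild type FGFR3, and 0 to 5 rises and 9 to 49 falls with S249C. S249C against wild type FGFR3 gave 1 to 10 rises and 0 to 8 falls in EV and 0 to 1 rise in UTX. With geometric means in place of sums, the log2 ratio of large to small subunit genes was 0.2089 in UTX_full, 0.2128 in HEAA_full, 0.1881 in EV_full, 0.2443 in UTX_sphere, 0.2294 in HEAA_sphere, 0.2143 in EV_sphere, 0.2488 in UTX_FGFR3S249C, 0.1652 in EV_FGFR3S249C, 0.2516 in UTX_FGFR3WT and 0.2225 in EV_FGFR3WT. With paralogs, fusion genes and the pseudogenes found by name added, the share of counts was 5.476% in UTX_sphere and 5.674% in HEAA_sphere. The cause of these changes was not tested. The least precise member was RPS26 in the media table, at 25.6 to 50.5 CPM.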
